A study of Mus musculus with 20 samples.

Results

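These 531 C/EBPβ sites had a called peak in wild-type cells after doxycycline and in none of the 4 other conditions. Peaks of 5 lists, 1 per condition, were merged where they overlapped by at least 1 bp, which gave 23854 sites. The members were chosen by the presence and absence of calls, so their absence elsewhere is the rule and not a result. They made up 2.23% of all merged sites and 4.32% of the 12283 sites of the induced wild-type list. Each member held 1 peak.

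Binding was measured by ChIP-seq, the sequencing of DNA that precipitates with a protein, in the mouse preadipocyte line 3T3-L1. In every condition the cells carried an HA-tagged LAP form of C/EBPβ under doxycycline control, either wild type (WT) or mutated at its sites of poly(ADP-ribosyl)ation (Mut), and all were taken after confluence under contact inhibition. WT −Dox and Mut −Dox cells received vehicle. WT +Dox and Mut +Dox cells received 1 µg/ml doxycycline for 8 h, and WT +Dox +BYK cells received the PARP inhibitor BYK204165 1 h before doxycycline. Each condition had 2 ChIP and 2 input libraries, 20 in all, but 1 peak list without replicate numbers. The precipitating antibody was against C/EBPβ and not the tag, so a peak cannot be assigned to the induced or to the cell's own protein. Whether the lines are single clones is not stated in the labels. Peak lists hold no expression, so the preadipocyte label was not checked against markers.

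The transcription factor C/EBPβ, of the bZIP class, binds DNA as a dimer and works early in fat cell formation, ahead of C/EBPα and PPARγ. LAP is its long activating form. Poly(ADP-ribosyl)ation is the attachment of ADP-ribose chains to proteins by PARP enzymes. Proteins of the bZIP class, which also holds Fos, Jun, ATF and CREB proteins, recognise short palindromic words, and some pair across families.

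Sequences at 8 gene starts that members overlapped are printed here. They are the 250 bases before the start, on mm10 coordinates, from RefSeq (GRCm38.p6), written 5′ to 3′ on the gene's strand. The first 4 belong to 4 of the 6 highest-scoring members that overlapped a promoter. The other 4 were chosen after their motif words were seen. Capitals mark 4 searched words on either strand: the C/EBP word TTGCNNAA, the CCAAT box CCAAT, the AP-1 word TGANTCA and the cyclic AMP response element (CRE) TGACGTCA. An overlap of a C/EBP and a CCAAT word was found in 1 member promoter, that of Nr3c2.
Slc35e1, chr8:72492615-72492864, minus strand: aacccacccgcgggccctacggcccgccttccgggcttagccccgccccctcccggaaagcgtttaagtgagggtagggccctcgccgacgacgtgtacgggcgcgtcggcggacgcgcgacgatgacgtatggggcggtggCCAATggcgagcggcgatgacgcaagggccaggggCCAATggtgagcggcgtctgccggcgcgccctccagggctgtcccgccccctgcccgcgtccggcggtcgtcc
Hspa4, chr11:53300480-53300729, minus strand: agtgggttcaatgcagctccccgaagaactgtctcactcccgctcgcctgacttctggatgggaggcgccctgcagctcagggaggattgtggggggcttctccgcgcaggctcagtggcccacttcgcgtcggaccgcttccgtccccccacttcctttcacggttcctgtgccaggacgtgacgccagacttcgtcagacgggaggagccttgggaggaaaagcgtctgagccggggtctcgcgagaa
Pabpn1, chr14:54893893-54894142, plus strand: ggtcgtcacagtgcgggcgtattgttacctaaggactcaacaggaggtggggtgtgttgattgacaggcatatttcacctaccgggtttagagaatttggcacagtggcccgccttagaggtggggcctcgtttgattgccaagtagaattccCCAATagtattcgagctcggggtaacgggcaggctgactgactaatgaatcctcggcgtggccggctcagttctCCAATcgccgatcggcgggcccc
Hook2, chr8:84990373-84990622, plus strand: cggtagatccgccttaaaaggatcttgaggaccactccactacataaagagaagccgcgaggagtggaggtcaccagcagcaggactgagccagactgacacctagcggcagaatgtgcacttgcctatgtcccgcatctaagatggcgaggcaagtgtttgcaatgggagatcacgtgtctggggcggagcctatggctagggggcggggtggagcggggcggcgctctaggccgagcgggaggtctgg
Trmt61a, chr12:111677855-111678104, plus strand: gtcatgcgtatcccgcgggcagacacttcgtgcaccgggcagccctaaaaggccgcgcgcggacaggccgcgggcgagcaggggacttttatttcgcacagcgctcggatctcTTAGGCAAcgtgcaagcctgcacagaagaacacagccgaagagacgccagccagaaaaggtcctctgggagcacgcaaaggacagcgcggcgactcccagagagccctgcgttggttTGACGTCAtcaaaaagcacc
Med21, chr6:146642329-146642578, plus strand: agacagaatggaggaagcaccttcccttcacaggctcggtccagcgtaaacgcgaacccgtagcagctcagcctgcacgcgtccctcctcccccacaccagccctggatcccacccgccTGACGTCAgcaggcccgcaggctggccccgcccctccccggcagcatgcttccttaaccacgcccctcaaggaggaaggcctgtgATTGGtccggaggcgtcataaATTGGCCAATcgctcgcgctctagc
Junos, chr4:95094563-95094812, plus strand: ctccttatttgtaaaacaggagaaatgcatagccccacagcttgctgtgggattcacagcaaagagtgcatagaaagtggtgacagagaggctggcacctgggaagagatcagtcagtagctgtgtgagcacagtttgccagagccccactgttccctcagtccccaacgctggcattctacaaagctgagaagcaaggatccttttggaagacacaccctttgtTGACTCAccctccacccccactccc
Nr3c2, chr8:76902080-76902329, plus strand: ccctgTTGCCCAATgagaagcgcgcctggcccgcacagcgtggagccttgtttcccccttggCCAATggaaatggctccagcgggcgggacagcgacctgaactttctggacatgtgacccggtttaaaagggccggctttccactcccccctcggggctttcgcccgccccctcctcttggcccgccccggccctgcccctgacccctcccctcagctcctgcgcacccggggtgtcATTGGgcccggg
The promoters of Hspa4 (a heat shock protein) and Hook2 (a linker protein of microtubules) held none of the 4 words. Those of Slc35e1 and Pabpn1 (a nuclear poly(A)-binding protein) held 2 CCAAT boxes each and no other marked word. Trmt61a, a subunit of a tRNA methyltransferase, had a C/EBP word and a CRE. Med21, a Mediator subunit, had a CRE and 3 CCAAT boxes, the last 2 of them adjacent on opposite strands. Junos, a non-coding RNA gene beside Jun, had an AP-1 word. The Junos member covered 155 bp of the window from 250 bases before the start to 50 after. Part of the printed Junos sequence thus lies outside the site. Nr3c2, the mineralocorticoid receptor, had 3 CCAAT boxes before its start, 1 of them overlapping a C/EBP word.

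The members were among the weaker calls of the induced wild-type list. Scores were set by the authors for each peak and are compared here only within a list. The exception is a set of alternative rules below, which put the same score threshold on every list. Members scored from 50.04 to 125.12 with a median of 57.68, and the lowest score of the list was 50.03. The other WT +Dox sites, here called shared, had a median of 103.6. By score, the members' median lay at percentile 12.7 of the list and the highest member at percentile 62.0. Of the 531, 193 scored under 55, 229 at least 60, 76 at least 75 and 12 at least 100. With the WT +Dox sites split by score into 10 groups of equal size, members were 219 (17.8%) of the lowest group, 134 (10.9%) of the next, 87 (7.08%) of the third and 0 in each of the top 3. Sites alone in another list were also weak in that list. Their median percentiles were 17.9 for Mut +Dox, 17.8 for WT +Dox +BYK, 16.4 for WT −Dox and 17.4 for Mut −Dox. The median member was 767 bp wide, against 835 bp for all peaks of the list.

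**Figure D1:**
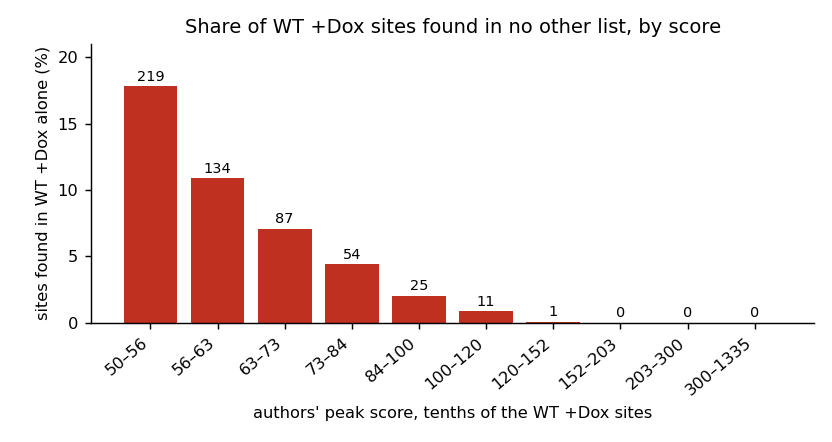
Share of WT +Dox sites found in no other list (y axis, percent) in 10 groups of equal size by the authors' peak score (x axis, score range). Numbers above the bars are member sites: the bars fall from 219 sites (17.8%) in the lowest-scoring group to 0 in the top 3 groups.

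The count of members moved little with the overlap rule, but which sites were members changed with the score threshold and list length. There were 525 when peaks up to 250 bp apart were merged, and 538 when a WT +Dox peak counted as alone unless a peak of another list covered at least 50% of it. When each list kept its 6898 highest-scoring peaks, the length of the shortest list, 542 sites were in WT +Dox alone, and 20 of these were among the 531. With peaks scoring at least 100 in every list, 156 sites were in WT +Dox alone, of which 12 were members. The lists also differed in length, and the part of length in the count was not tested beyond the equal-length setting above. The WT +Dox list had 12384 peaks; those of Mut +Dox and WT +Dox +BYK were longer, at 17816 and 18371, and those of WT −Dox and Mut −Dox shorter, at 10959 and 6898. Sites that a single list held were 2839 (16.0% of the list's sites) for Mut +Dox, 3120 (17.1%) for WT +Dox +BYK, 668 (6.15%) for WT −Dox and 167 (2.43%) for Mut −Dox. The depth behind each list is unknown, and its part in these numbers was not tested.

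Seen among induced sites, the members were the minority that neither other induced list held. Of the 12283 WT +Dox sites, 3893 were absent from both lists without doxycycline. Of those 3893, 2405 (61.8%) were in both Mut +Dox and WT +Dox +BYK, 410 (10.5%) in Mut +Dox but not WT +Dox +BYK, and 547 (14.1%) in WT +Dox +BYK but not Mut +Dox. The 531 members were the remaining 13.6% (Wilson 95% interval 12.6 to 14.8). Wilson intervals here and below cover counting error only, and neighbouring sites are not independent. The median WT +Dox score was 77.93 for sites in both other induced lists, 61.6 and 62.3 for those in Mut +Dox or WT +Dox +BYK alone of the pair, and 57.68 for the members.

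By the rule no member overlapped a peak of another condition, so the gaps to those peaks are a description without a baseline. The median gap to the nearest peak was 22.2 kb for WT +Dox +BYK, 27.3 kb for Mut +Dox, 40.5 kb for WT −Dox and 68.0 kb for Mut −Dox. The gaps ran in the reverse order of list length. A peak of any other list lay within 1 kb of 40 members (7.53%), within 5 kb of 119 (22.4%) and within 50 kb of 410 (77.2%). Some members sat at the edge of the rule. The member at chr6:134035547-134036538, which scored 57.21 and overlapped the promoter of Etv6, an ETS-family repressor, had a Mut +Dox peak 5 bp away. Peaks of Mut −Dox, WT −Dox and WT +Dox +BYK lay 0.027, 0.045 and 0.056 kb from it, and a shared WT +Dox site 0.005 kb. A Mut +Dox peak lay 24 and 74 bp from 2 more members. Just outside the rule, the WT +Dox sites that overlapped another list's peak least did so by 3, 38 and 53 bp.

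**Figure D2:**
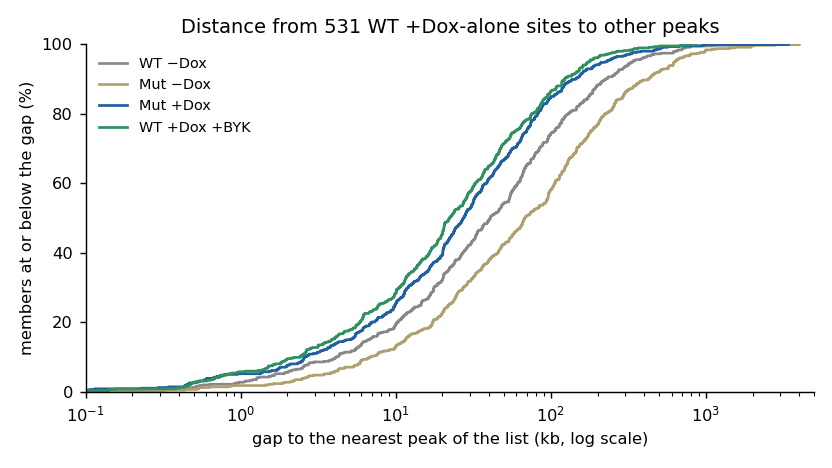
Gap from each of the 531 member sites to the nearest peak of each other list (x axis, kb, log scale), drawn as the percent of members at or below that gap (y axis). The curves for Mut +Dox and WT +Dox +BYK lie to the left, with medians of 27.3 and 22.2 kb, and that for Mut −Dox to the right, with a median of 68.0 kb.

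Members lay at gene starts more often than most other sites did. A promoter window (250 bases before to 50 after a RefSeq start) was overlapped by 61 members, or 11.5% (9.05 to 14.5). The share was 8.37% (7.89 to 8.89) of the 11752 shared WT +Dox sites, 5.28% (4.52 to 6.17) of the sites alone in Mut +Dox and 6.92% (6.08 to 7.87) of those alone in WT +Dox +BYK. For sites alone in WT −Dox it was 5.99% and in Mut −Dox 6.59%. Among sites scoring up to 63.3, 10.8% (7.94 to 14.4) of 353 members and 7.27% (6.24 to 8.46) of 2104 shared sites overlapped a promoter, and these intervals overlap. Sites that 1 other induced list held had shares near that of the members. Among sites absent without doxycycline, the share was 11.2% for those in WT +Dox and Mut +Dox, 9.14% for those in WT +Dox and WT +Dox +BYK, and 5.07% for those in all 3 induced lists. The promoter table holds no window on 1 chromosome, chromosome 18, where 17 members lie. Fosl1, Siglec1 and Sox9, whose spans lie under or beside a member, were not matched in it and are not in these counts.

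Members also had the highest share near the ends of protein-coding genes among the sets given here. Sites held by 1 other induced list came close. Within 1 kb of either end lay 74 members, or 13.9% (11.2 to 17.1), against 9.64% of shared sites, 6.34% of sites alone in Mut +Dox and 9.78% of sites alone in WT +Dox +BYK. Among WT +Dox sites absent without doxycycline, the share was 12.7% for those in Mut +Dox but not WT +Dox +BYK. It was 13.2% for those in WT +Dox +BYK but not Mut +Dox, and 5.16% for those in both. The shares of 12.7% and 13.2% lie inside the members' interval. At 500 bp the shares were 10.2% of members and 6.80% of shared sites, and at 5 kb 29.0% and 21.9%. Inside a gene span lay 268 members (50.5%, 46.2 to 54.7), close to the 48.1% of shared sites. Over 50 kb from every protein-coding gene lay 97 members (18.3%), against 20.7% of shared sites and 28.1% of sites alone in Mut +Dox. Chromosome 8 held the largest number of members, 51 (9.60%, 7.38 to 12.4), and 6.61% of all WT +Dox sites. Chromosome 2 held 49 members and chromosome X 5.

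**Figure D3:**
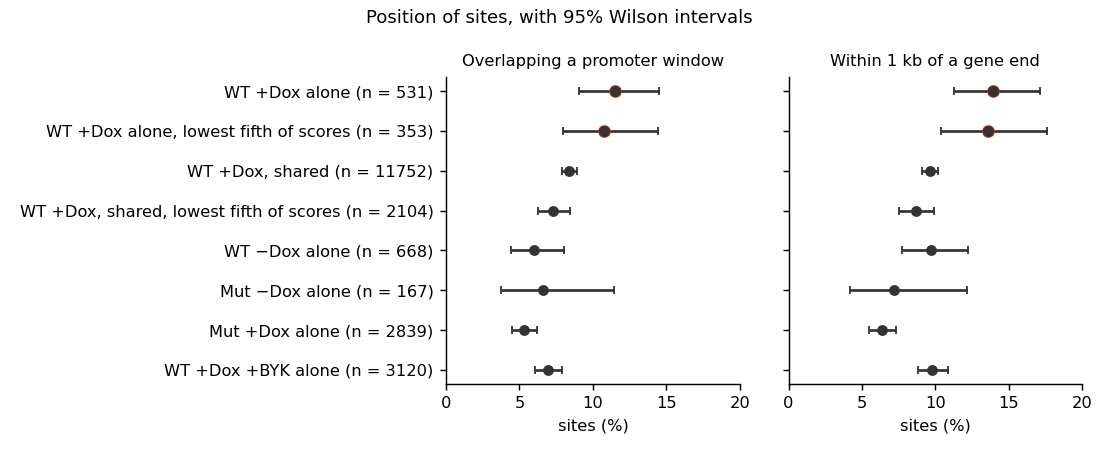
Percent of sites (x axes) that overlapped a promoter window (left) or lay within 1 kb of a gene end (right), for 8 sets of sites; points are shares and bars are 95% Wilson intervals. The members (WT +Dox alone) are at 11.5% and 13.9%, with the shared WT +Dox sites at 8.37% and 9.64%.

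The member promoters were rich in CpG, and a lower share of them than of other bound promoters held the C/EBP word, with overlapping intervals. Members overlapped 84 windows of 74 genes, which is 0.274% of the 26994 genes in the table. The median GC content was 60.2% in these windows, 57.0% in 1254 windows under shared WT +Dox sites and 52.7% in all 32817 windows. The ratio of observed to expected CpG was 0.800, 0.693 and 0.383 in the same order. The C/EBP word was in 13 member windows (15.5%, 9.27 to 24.7), 23.0% (20.7 to 25.4) of windows under shared sites and 10.8% of all. In windows under shared sites of scores up to 63.3 it was 16.0%. The CCAAT box was in 30 (35.7%), 42.4% and 37.4%, and the AP-1 word in 7 (8.33%), 8.37% and 7.81%. Of the 84 windows, 40 held none of the 4 marked words. Some windows overlap one another, so they are not independent counts. Counted once per site, the C/EBP word was in 10 of 61 members at promoters (16.4%, 9.16 to 27.6) and 25.8% of shared sites (23.2 to 28.6).

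The CRE was the word with the greatest ratio between member windows and all windows under shared sites. It was in 7 member windows (8.33%, 4.10 to 16.2), 34 windows under shared sites (2.71%, 1.95 to 3.76) and 1.79% of all promoters. In windows under shared sites of scores up to 63.3 it was in 7 of 200 (3.5%, 1.71 to 7.05), an interval that overlaps that of the members. Counted once per site, 6 of 61 members at promoters (9.84%, 4.59 to 19.8) and 24 of 984 shared sites (2.44%) had one. Among promoter sites alone in another list, it was in 6 of 150 (4.00%) for Mut +Dox and 4 of 216 (1.85%) for WT +Dox +BYK. The 7 windows were those of Pot1a (a telomere-binding protein), Trmt61a, Mettl4, Med21, Txnl4b, and the neighbours Ddx28 and Dus2, which share 1 site that scored 50.05. The sites of Pot1a and Trmt61a scored 68.4 and 61.23 and the others at most 55.69, so these are weak calls in a small number of windows.

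Of the 4 words without capitals, the ETS word CCGGAA was in 36.9% of member windows (27.4 to 47.6), 24.9% of windows under shared sites and 14.9% of all. The GC box GGGCGG was in 53.6%, 52.6% and 35.6%, the NRF1 word GCGCATGC in 4.76%, 4.39% and 2.71%, and the E-box CACGTG in 14.3%, 9.25% and 7.15%. In the 200 windows under shared sites up to the score limit used for the CRE, the ETS word was in 20.5% (15.5 to 26.6). That interval lies below the one of the member windows. For the GC box, NRF1 word and E-box, the intervals at that limit overlapped those of the members. Counted once per site, the ETS word was in 39.3% of members at promoters (28.1 to 51.9) and 25.2% of all shared sites (22.6 to 28.0). ETS, GC box, NRF1, E-box and CRE words all hold CpG or GC runs, and the member windows were also higher in GC and CpG. The part of base composition in these shares, that of the CRE included, was not tested.

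The highest-scoring members covered genes of varied function. The top member (chr2:60699718-60700665, score 125.12) lay inside Itgb6, an epithelial integrin subunit, with its nearest peak of another list 39.2 kb away. Next were the promoters of Slc35e1 (110.14), Hspa4 (105.61), Pabpn1 (104.24) and Srsf7 (102.83), an SR splicing factor whose start lies beside Gemin6. The Slc35e1 member had no peak of another list within 169 kb. Those of Hspa4 and Pabpn1 had a shared WT +Dox site 7.58 and 5.87 kb away. Further members in the top 15 lay inside Dstn (101.26), an actin-severing protein, Septin11 (101.05), Hook2 (100.93), Nrg1 (100.22), the growth factor neuregulin 1, and Idh2 (99.54), mitochondrial isocitrate dehydrogenase. A member of score 99.82 had its midpoint 0.124 kb from Fosl1 and overlapped the lower-coordinate edge of that gene's span (chr19:5447698-5455938). The Nrg1 member had a Mut +Dox peak 0.536 kb away, and the Dstn member a WT +Dox +BYK peak 1.62 kb away. The remaining 4 of the top 15 lay outside genes, nearest to Gm4832 (107.82, 126 kb away), Setd4 (102, 336 kb), Fbxo4 (100.33, 57.2 kb) and Thg1l (97.51, 11.7 kb).

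Other promoters under members, in order of score, were those of the non-coding genes 4930543I11Rik (95.39) and Snhg8 (85.11), Emd (91.12), which encodes the nuclear envelope protein emerin, Atg2a (80.29), a lipid transfer protein of autophagy, Zfp558 (75.2) and Gm30073 (72.08). Some promoters of lower score belonged to the paired genes Fbh1 and Ankrd16 (62.87), Ighmbp2 and Mrpl21 (66.11), and Prdx5 and Trmt112 (53.2). Each of these pairs shares 1 member, and which gene of a pair a site belongs to cannot be told apart. These pairs were picked after their values were seen.

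Within 50 kb, 1026 of 21887 protein-coding genes (4.69%) had a member, 968 of them 1 and 58 of them 2. No gene had more than 2. Members were scattered, with 15 pairs within 50 kb of each other and no larger group. The pair with the highest summed score lay on chromosome 8 around Junb, an AP-1 subunit, and 7 neighbours: Mast1, Rtbdn, Rnaseh2a, Prdx2, Hook2, Best2 and Get3. Ehd1, which acts in endocytic recycling, had 5 sites in WT +Dox, of which 2 were members, 3 in Mut +Dox, 4 in WT +Dox +BYK, 2 in WT −Dox and 1 in Mut −Dox. Ckb, the brain-type creatine kinase, had 2 WT +Dox sites, both members, and none in another list. Ckb was not among the 15 genes with the highest summed score and is named as an exception to that order. Nrg1, with its long span, had 17 WT +Dox sites of which 2 were members, and 24 in Mut +Dox.

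Among gene lists, AP-1 and related bZIP transcription factors had many members for their number of sites. Of 72 WT +Dox sites within 50 kb of the 33 list genes, 8 were members, or 11.1% (5.74 to 20.4), beside 4.32% of all WT +Dox sites. A member lay near 7 of the 33 genes (21.2%), beside 4.69% of all protein-coding genes. This list was chosen with earlier results of these data known, in which it already stood out, so the count is not independent evidence. The 7 genes were Junb, Jun, Fos, Fosl1, Fosl2, Batf3 and Mafk. The count was 4 within 10 kb, 10 within 100 kb, 5 by nearest gene and 6 for members scoring at least 60.

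The members near AP-1 genes ranged from lone sites to sites beside strong shared ones. Junb (chr8:84976909-84978748) had 5 sites in WT +Dox, 3 in WT +Dox +BYK, 2 in Mut +Dox, 1 in WT −Dox and 0 in Mut −Dox. Its members at chr8:84990078-84991271, which covers the Hook2 promoter printed above, and chr8:84968677-84970416 scored 100.93 and 64.61. Between them lay a site with a score of 54.03 in WT +Dox and 80.8 in WT +Dox +BYK, and a site near the gene called in 4 lists. Fos had a single site in any list within 50 kb, the member of score 76.54, 20.5 kb from the gene. Mafk, a small Maf protein, likewise had a single site, the member of score 61.92 inside the gene, with the nearest peak of another list 62.2 kb away. Jun had a member of score 61.16 at 42.9 kb, over the Junos start printed above, and a second WT +Dox site that Mut +Dox also held.

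Fosl1 and Fosl2 differed from these. The Fosl1 member (chr19:5447210-5447937, 99.82) lay 1.77 kb from a site called in all 5 lists with scores from 226.64 to 612.94. The Fosl2 member (chr5:32140689-32141378, 52.75) lay 0.342 kb from a site called in all 5 lists that scored 531.62 in WT +Dox. Batf3 had a member of score 53.61 at 23.0 kb from the gene, and the nearest peak of another list, at a site that 4 lists held, lay 47.5 kb from it. Scores of different lists are given side by side as the authors' values and are not compared.

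**Figure D4:**
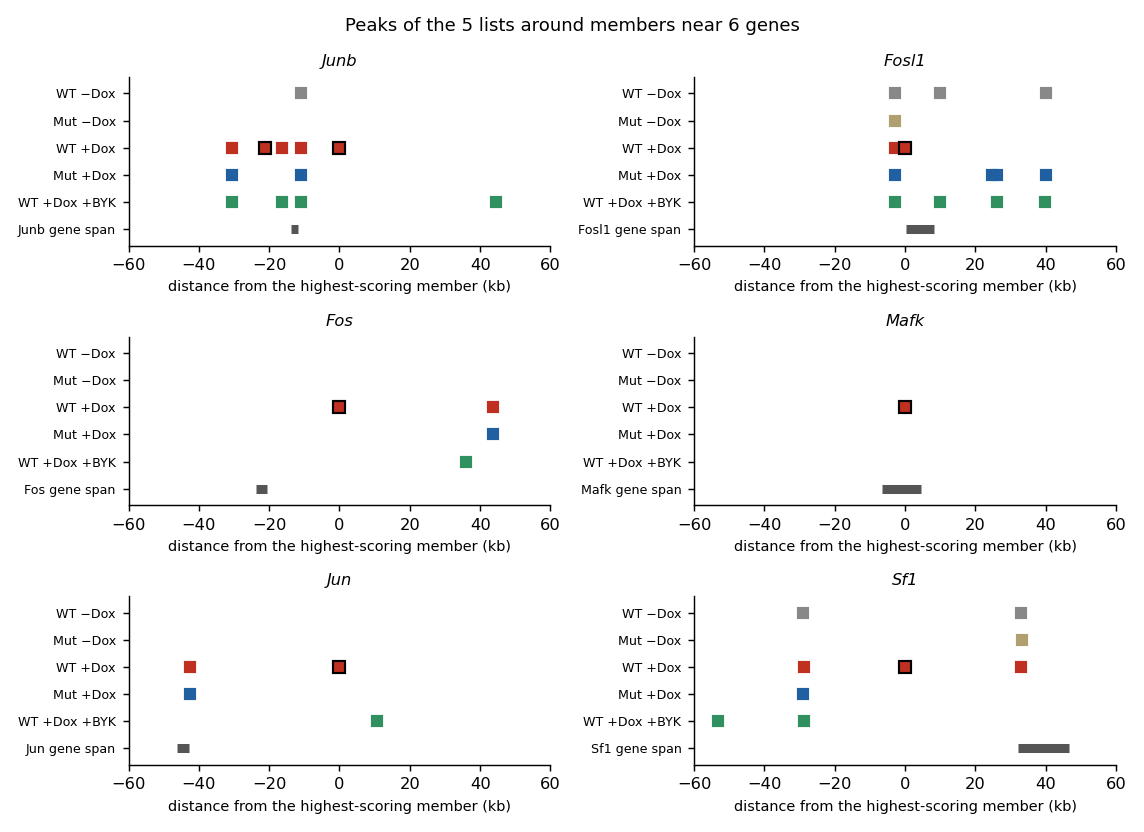
Called peaks of the 5 lists (rows; squares at peak positions, not to peak width) around members near 6 genes, by distance from the highest-scoring member (x axis, kb), with the gene span in the lowest row. Black outlines mark members: Junb has 2, with scores of 100.93 and 64.61, and no other list has a peak at any of them.

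RNA processing factors had the largest share among the lists of this biology. Of 42 WT +Dox sites near the 36 genes, 6 were members (14.3%, 6.72 to 27.8), beside 4.32% of all WT +Dox sites. A member lay near 5 of the 36 genes (13.9%), beside 4.69% of all protein-coding genes. Sf1, a branch-point binding splicing factor, had 3 WT +Dox sites of which 2 were members (79.81 and 52.95), and 0 in Mut +Dox and WT +Dox +BYK. The site left was also in both lists without doxycycline. Srsf7 had its promoter member (102.83) as its single WT +Dox site. Hnrnpa1, an RNA-binding protein, had a member of score 57.29 at 0.187 kb, over the promoters it shares with Cbx5, and 4 WT +Dox sites in all. Ddx5, an RNA helicase, had a member of score 70.21, and Sfpq, a paraspeckle protein, one of 55.26 that overlapped the Zmym6 promoter. The count was 2 within 10 kb and 0 by nearest gene, so another protein-coding gene was nearer to each of the 6 members.

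Insulin and IGF signalling genes had 5 members among 52 sites (9.62%, 4.18 to 20.6), an interval that holds the 4.32% of all WT +Dox sites. A member lay near 4 of the 26 genes (15.4%), beside 4.69% of all protein-coding genes. The Insr member (chr8:3259967-3260789, 70.68), inside the insulin receptor gene, was its single WT +Dox site, while the 5 other sites near the gene were in other lists. Rictor, of the mTORC2 complex, had one of 51.81, and Tsc2, a brake on mTORC1, had 2 (53.92 and 53.44) over 20 kb away.

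Genes of preadipocytes and of the fibroblast matrix had member shares near the background. Preadipocyte factors and inhibitors had 5 members of 79 sites (6.33%, 2.73 to 14.0). Smad3, a TGF-β effector, had the highest, 78.16, inside the gene, among 7 WT +Dox sites. Sox9, a factor that holds back adipogenesis, had one of 55.57 at 0.318 kb, Dlk1, the preadipocyte protein Pref-1, one of 50.76 at 2.78 kb, Id3 one of 56.38 and Tcf7l2 one of 59.41. Matrix genes had 6 of 127 (4.72%): Mmp14, a membrane-bound collagenase, had 2 (56.34 and 53.6), and Col5a3 (66.81), Col4a2 (56.77), Ccn1 (54.41) and Tagln (50.25) had 1 each.

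Adipocyte genes had member shares near the 4.32% of all WT +Dox sites, and the C/EBP family had no member. Adipogenic transcription factors had 2 of 60 sites (3.33%, 0.919 to 11.4): the glucocorticoid receptor gene Nr3c1 (61.06) and Stat5a (53.96). Adipocyte lipid and secreted factors had 2 of 52 (3.85%, 1.06 to 13.0): Lep, the leptin gene (65.77, 44.1 kb away), and Acsl1, an acyl-CoA synthetase (52.23). None of the 7 WT +Dox sites near C/EBP genes and none of the 40 near NF-κB pathway genes was a member, which, at 3 counts of the total, allows shares of up to 42.9% and 7.50%. The regulators Cebpa, Cebpb and Cebpd, with Klf5, Srebf1 and Pparg, had 0 members within 50 kb. So had the fat cell genes Adipoq, Fabp4 and Lpl, and Il6, Nampt and Parp1. Cebpd, Klf5 and Srebf1 had no WT +Dox site within 50 kb, so they could not have a member. Pparg had 15 WT +Dox sites there, all of them also in another list.

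The remaining lists had 0 to 2 members each. Acute phase and inflammatory genes had 2 of 87 (2.30%), at Socs3, a cytokine feedback inhibitor (67.24), and Hp, haptoglobin (51.16). Immediate early genes had 2 of 46 (4.35%), at Zfp36l1 (57.64) and Csrnp1 (51.68), the latter with no other site in any list. Cell cycle genes had 2 of 41 (4.88%), at the promoters of Cdk6 (59.67) and E2f2 (56.38). PARP, macrodomain and NAD genes had 1 of 42 (2.38%), near Parp10 (71.81), stress genes 1 of 48, at Nqo1 (51.83), ribosomal proteins 1 of 40, near Rpl23 (61.26), and proteasome genes 2 of 36. Marker lists of other cell types gave 2 of 7 sites for hepatocytes (28.6%, 8.22 to 64.1; G6pc and Hnf4a), 1 of 16 for neurons (Camk2a), 1 of 23 for myeloid cells (Spi1), 0 of 12 for lymphoid cells and 0 of 7 for muscle. Across all 21 lists, 47 members lay within 50 kb of a list gene.

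**Figure D5:**
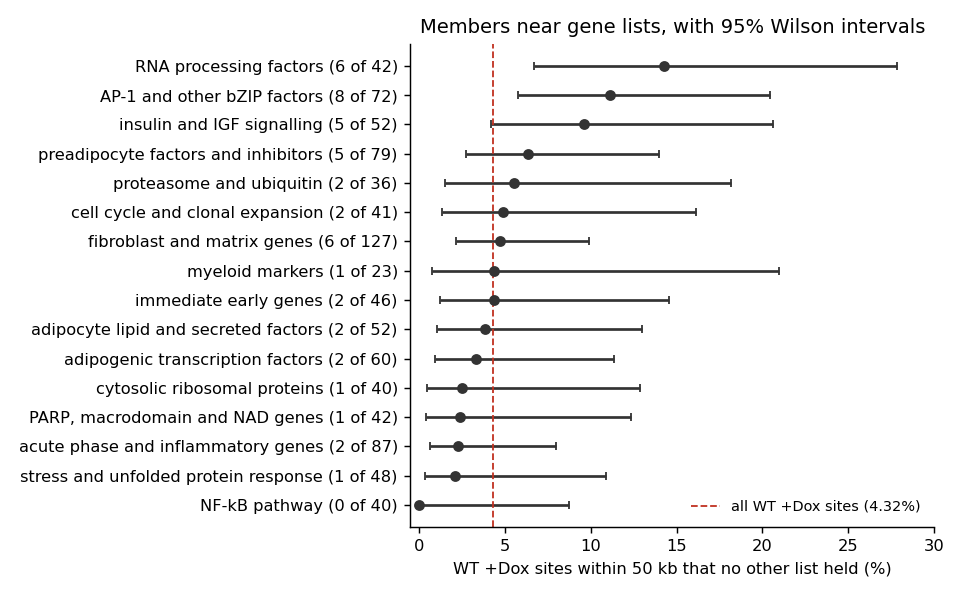
Percent of the WT +Dox sites within 50 kb of each list's genes that were members (x axis), with 95% Wilson intervals; labels give members of WT +Dox sites, and the dashed line is 4.32%, the share of all WT +Dox sites. Of the 16 lists drawn, RNA processing (14.3%) and AP-1 factors (11.1%) are highest, with intervals above the line, and the other intervals drawn reach or cross it; the lists with under 20 WT +Dox sites are not drawn.

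A few members lay beside microRNA genes, looked up after the sites were known. Of the 531, 9 (1.69%, 0.894 to 3.19) were within 10 kb of a hairpin, against 1.02% of shared WT +Dox sites, so the shares do not stand apart. The 3 hairpins below are shown because their products are abundant, well-studied miRNAs. Mature sequences are from RefSeq (GRCm38.p6), 5′ to 3′, with the seed (bases 2 to 8) in capitals.
miR-100-5p, chr9:41531437-41531458, plus strand: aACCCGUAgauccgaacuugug
miR-21a-5p, chr11:86584120-86584141, minus strand: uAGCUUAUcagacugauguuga
let-7g-5p, chr9:106178846-106178867, plus strand: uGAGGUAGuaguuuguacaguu
The seeds of the 3 differ from one another. The member 1.41 kb from Mir100 scored 72.87 and also lay 2.96 kb from the hairpin of let-7a-2. The member 1.41 kb from Mir21a scored 53.37, and 2 other WT +Dox sites lay within 10 kb of that hairpin. The member 5.76 kb from Mirlet7g scored 54.37 and was the single site of any list within 10 kb.

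Some of the widest members lay among repeated gene families. There were 6 over 2 kb, nearest to Gm38510 and Gm7592 on chromosome 1, LOC100504180 on chromosome 10, Gm14410 on chromosome 2, Zfp982 on chromosome 4 and Fbxo4 on chromosome 15. Their widths ran from 2087 to 7152 bp and their scores from 56.69 to 100.33. How the authors placed reads that match several copies is not stated in the labels, so the positions of peaks at Gm38510, Gm7592, LOC100504180, Gm14410 and Zfp982 are uncertain. Without these 6, 11.6% of members overlapped a promoter window and 13.9% lay within 1 kb of a gene end.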

How the data were processed

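The 5 conditions had 2 C/EBPβ ChIP and 2 input libraries each. Bowtie, bedtools and build mm10 stand in the submitters' processing notes, without versions, and the peak names in the deposited files begin with MACS. Not given in the sources used here are the version and threshold of the caller, whether input was used, and the way replicates were combined. Each deposited list gives a position and a score per peak; the score is the authors' value on a scale that no header names. Depth is unknown. With 1 list per condition no test was made.

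Peaks were merged at 1 bp overlap, and sites went to protein-coding spans (RefSeq, GRCm38.p6, 21887 genes) within 50 kb of their midpoint. All 576 genes of the 21 lists were matched, Adprs as Adprhl2. The members and lists were chosen with earlier results of these data known. Named genes were the nearest to the 15 highest-scoring members, those with 2 members by summed score, list genes with a member, promoters by score and a panel of adipogenic and PARP genes; exceptions are stated, and 1 list gene with a member is not reported here. The merging and interval code was tested on simulated data. Alternatives covered overlap, score, list length, windows and gene assignment; those for promoter overlap were added after the data were seen. Coordinates are 1-based. Computation used matplotlib 3.10.9, scipy 1.17.1, pandas 2.3.3, numpy 2.4.6 and Python 3.11.15.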

Additional observations from a re-analysis of the deposited data

How the results depend on the processing

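The count of 531 sites stayed between 396 and 542 under most overlap, score and length rules, and was 273 at a score of at least 75 and 156 at a score of at least 100 in every list. Of the 531, 76 and 12 were among these. The share within 1 kb of a gene end became 10.2% at 500 bp and 29.0% at 5 kb, as a narrower or wider window must. The share inside gene spans was 45.4% for members scoring at least 60. The 47 members near list genes became 23 within 10 kb, 70 within 100 kb, 29 with nearest genes and 20 at a score of at least 60. The 10 kb window and the score threshold can only take in fewer sites, and the 100 kb window only more. No paired analysis was possible because each condition has 1 list without replicate numbers, and no replicate could be left out. Peak calls at the threshold, unknown depth and lists of unequal length limit what absence from a list shows.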
